A study of Arabidopsis thaliana with 8 samples.

Results

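The iron deficiency response of fit roots was measured on 4 arrays, 2 of iron-deficient and 2 of iron-sufficient fit plants, out of 8 arrays in the series. The fit mutant of Arabidopsis thaliana lacks working FIT, a basic helix-loop-helix transcription factor that drives iron uptake genes in the root epidermis; the labels give the genotype as fit and name no allele. All plants, of both genotypes, grew for 14 days on Gamborg's B5 medium and then for 3 days on agar with or without iron. The iron-deficient fit roots (fit -Fe) had no added iron and 300 µM ferrozine, which binds ferrous iron, and the iron-sufficient fit roots (fit +Fe) had 50 µM Fe(III)-EDTA. The 4 arrays of WT roots on the same 2 media, WT -Fe and WT +Fe, entered the same fit and serve here for comparison. Of 22810 probe sets, the 22746 that are not array controls were tested, and 13513 of these named 1 gene.

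Iron-starved roots are known to respond through connected layers of regulators. Upstream, iron status is read through IRON MAN peptides, BRUTUS-type ubiquitin ligases and basic helix-loop-helix factors of subgroup IVc, which raise the subgroup Ib factors such as BHLH101. The subgroup Ib factors pair with FIT to switch on iron reduction, iron import and the synthesis and release of coumarins, phenolic compounds that mobilise iron in the soil. Mutants that lack FIT are known to take up little iron.

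Before the results, 1 array needs a remark. Control transcripts for actin, GAPDH and ubiquitin are probed at both ends, and a high 3' to 5' signal ratio marks shortened RNA or cRNA. This ratio, a geometric mean over the probe set pairs of these controls, was 2.03 and 5.91 on the fit -Fe arrays (replicates 1 and 2), against 1.43 and 2.01 on the fit +Fe arrays, and it was 3.84 on WT -Fe replicate 2. The fit -Fe replicates correlated with each other at r = 0.963 across probe sets, less than replicate 1 did with its closest array of another group (r = 0.986), while the fit +Fe replicates correlated at r = 0.991. Results are therefore also given without fit -Fe replicate 2. Of the root hair markers EXPA7 and EXPA18 had log2 signals above 7 on all 4 fit arrays, whereas the endodermis, stele and meristem markers and FIT itself were on no probe set that names 1 gene here, so the mutation was not checked.

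In fit roots 46 of 22746 probe sets, or 0.202%, changed with iron deficiency, 30 of them higher (0.132%) and 16 lower (0.0703%). A probe set is called changed here at a Benjamini-Hochberg adjusted p under 0.05 in limma's moderated test on log2 signal. Called changes lay between 1.39 and 4.48 on the log2 scale for the higher and between -3.36 and -1.42 for the lower probe sets. The 30 higher ones had a median log2 signal of 9.10 in fit -Fe roots, against 6.79 in fit +Fe roots. The 16 lower ones had a median of 6.47 in fit -Fe roots, against 9.04 in fit +Fe roots. A change was called only where it was large beside the spread: 480 probe sets had a log2 fold change of at least 1 in either direction, and 46 of these were called; 1938 (8.52%) had an unadjusted p under 0.05. The -Fe and +Fe arrays did not overlap for any of the 46, which says little by itself, since 19.4% of all probe sets had both -Fe arrays above both +Fe arrays and 16.4% had both below. The calls rest on both fit +Fe arrays: without either of them 1 probe set, AT3G02480, was called, although all 46 kept their sign. Of the 46, 16 higher and 8 lower probe sets named 1 gene, and their values stand in the plot of signal by array.

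**Figure D1:**
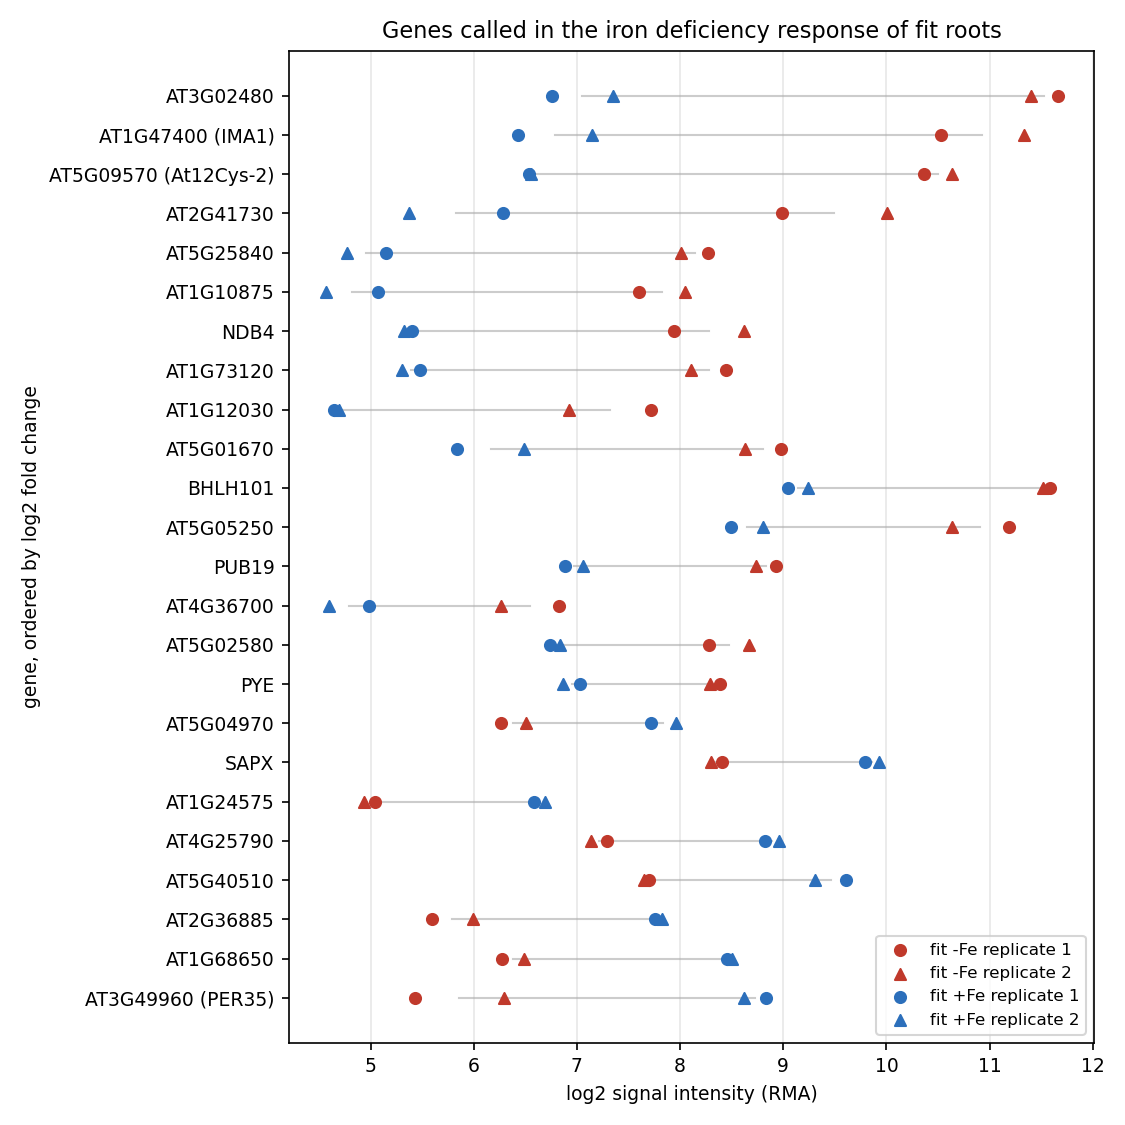
Log2 signal intensity of the 24 genes called in the iron deficiency response of fit roots, ordered from the highest to the lowest log2 fold change. Red marks are fit -Fe arrays and blue marks fit +Fe arrays, circles replicate 1 and triangles replicate 2, and the grey line joins the group means; the colours do not overlap in any row, with AT3G02480 at the top (4.48) and AT3G49960 at the bottom (-2.87).

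3 upstream iron regulators, IMA1, BHLH101 and PYE, rose in fit roots. AT1G47400 (IMA1), an IRON MAN peptide gene that promotes the iron deficiency response, had log2 signals of 10.53 and 11.33 in fit -Fe roots, against 6.43 and 7.14 in fit +Fe roots. That is a 17.7-fold rise (log2 4.14, SE 0.33, limma adjusted p = 0.00609). BHLH101, a subgroup Ib factor, had 11.59 and 11.51 in fit -Fe roots, against 9.04 and 9.24 in fit +Fe roots (log2 2.41, SE 0.22, limma adjusted p = 0.00901). The gap between the groups was far wider than the spread of the replicates in either. PYE, a factor that represses iron distribution and storage genes, had 8.39 and 8.29 in fit -Fe roots, against 7.03 and 6.87 in fit +Fe roots (log2 1.39, SE 0.17, limma adjusted p = 0.0268), the smallest of the called rises.

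Of the 10 measured regulators of 17 listed, 3 were called higher and 0 lower, against 0.132% and 0.0703% of all probe sets. The median log2 fold change over the 10 was 0.31, against 0.03 over all probe sets. The gene lists used here were written with earlier results of these data known, so their counts are not independent of these data. The ubiquitin ligase gene AT1G74770 (BTSL1), whose product marks iron regulators for breakdown, had 11.50 and 10.71 in fit -Fe roots, against 10.26 and 10.24 in fit +Fe roots, and its log2 fold change of 0.86 (SE 0.28) was not called (limma adjusted p = 0.451). In WT roots AT1G74770 rose by 2.68 on the same probe set (limma adjusted p = 0.00821). Its mean went from 8.66 to 11.34 in WT, against 10.25 to 11.10 in fit. The test of the difference between the fit and WT responses did not pass (limma adjusted p = 0.415). A second probe set for AT1G74770 had 7.90 and 7.49 in fit -Fe roots, against 6.61 and 6.41 in fit +Fe roots, a log2 difference of 1.19 that was not called in fit either. Its relative AT1G18910 (BTSL2) had 9.29 and 9.08 in fit -Fe roots, against 9.23 and 9.29 in fit +Fe roots. For BTSL2 the groups overlapped and the 95% interval of the log2 fold change ran from -0.48 to 0.33, while in WT roots the same gene rose by 1.71 (limma adjusted p = 0.00733). For BTSL2 too the difference between the fit and WT responses did not pass (limma adjusted p = 0.0991). The subgroup IVc factors ILR3, bHLH34, bHLH104 and bHLH115 and their partner bHLH121 (URI), which are mostly controlled at the protein level, had log2 fold changes of 0.03 to 0.39 and none was called.

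None of the measured coumarin genes was called in fit. Of 14 listed genes of iron uptake and coumarins 4 were measured, all of them coumarin genes. Limma called 0 of them in fit (lowest adjusted p = 0.716) and 3 in WT, against 0.202% and 0.431% of all probe sets. With so small a share called in fit, 0 of 4 says little by itself. No probe set was named here for the iron reductase gene FRO2, the iron importer gene IRT1 or the other listed genes of reduction, import and acidification. Their probe sets may be among the tested ones without a name, so their response cannot be given. S8H (AT3G12900), whose enzyme hydroxylates scopoletin to fraxetin, had log2 signals of 5.37 and 6.76 in fit -Fe roots, against 5.72 and 5.64 in fit +Fe roots. The groups overlapped, and the wide 95% interval of its log2 fold change, -0.64 to 1.41, still lies below the rise of 5.06 that WT roots showed. BGLU42, a beta-glucosidase thought to free coumarins from their sugar, had 8.28 and 7.99 in fit -Fe roots, against 8.07 and 8.05 in fit +Fe roots (interval -0.45 to 0.61). AT3G13610 (F6'H1), the enzyme that starts coumarin synthesis, stood at 10.94 and 10.77 in fit -Fe roots, against 11.22 and 10.90 in fit +Fe roots (interval -0.74 to 0.33). AT1G28680 (COSY), coumarin synthase, had 9.83 and 9.45 in fit -Fe roots, against 9.85 and 10.03 in fit +Fe roots. F6'H1 and COSY thus kept a strong signal in the mutant on both media, whereas S8H stayed at 6.76 or lower on all 4 arrays. Its highest value was on fit -Fe replicate 2, the array with the 3' to 5' ratio of 5.91. In the test of the difference between the fit and WT responses, S8H (limma adjusted p = 0.0815), BGLU42 (0.0631) and F6'H1 (0.122) did not pass.

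The naming rule also took genes with large rises in WT that were not called in fit. AT3G58060 (MTP8), which moves manganese and iron into the vacuole, had 5.28 and 4.98 in fit -Fe roots, against 4.96 and 5.27 in fit +Fe roots. CYP71B5, a cytochrome P450 gene, lay close to 4 on all 4 fit arrays, at the dim end of the scale, with an interval of -0.36 to 0.42. FOLB1, for a folate synthesis enzyme, had 4.76 and 4.16 in fit -Fe roots, against 4.22 and 4.09 in fit +Fe roots. AT3G61930 had 4.70 and 4.89 in fit -Fe roots, against 5.63 and 5.24 in fit +Fe roots, a log2 difference of -0.64 that was not called. For these 4 the difference between the fit and WT responses passed, with log2 differences of -4.23 for MTP8, -4.67 for CYP71B5, -3.74 for FOLB1 and -6.45 for AT3G61930 (limma adjusted p between 0.000241 and 0.0133). AT4G19370 was less even, with 7.24 and 6.15 in fit -Fe roots, against 6.33 and 5.82 in fit +Fe roots, and its difference from WT did not pass (limma adjusted p = 0.283). Among metal transporters, ZIP9 had a log2 fold change of -0.07 (SE 0.26) and ZIP6 of -0.09 (SE 0.25) in fit. Of the 3 measured members of that list 0 were called in fit, against 0.202% of all probe sets.

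**Figure D2:**
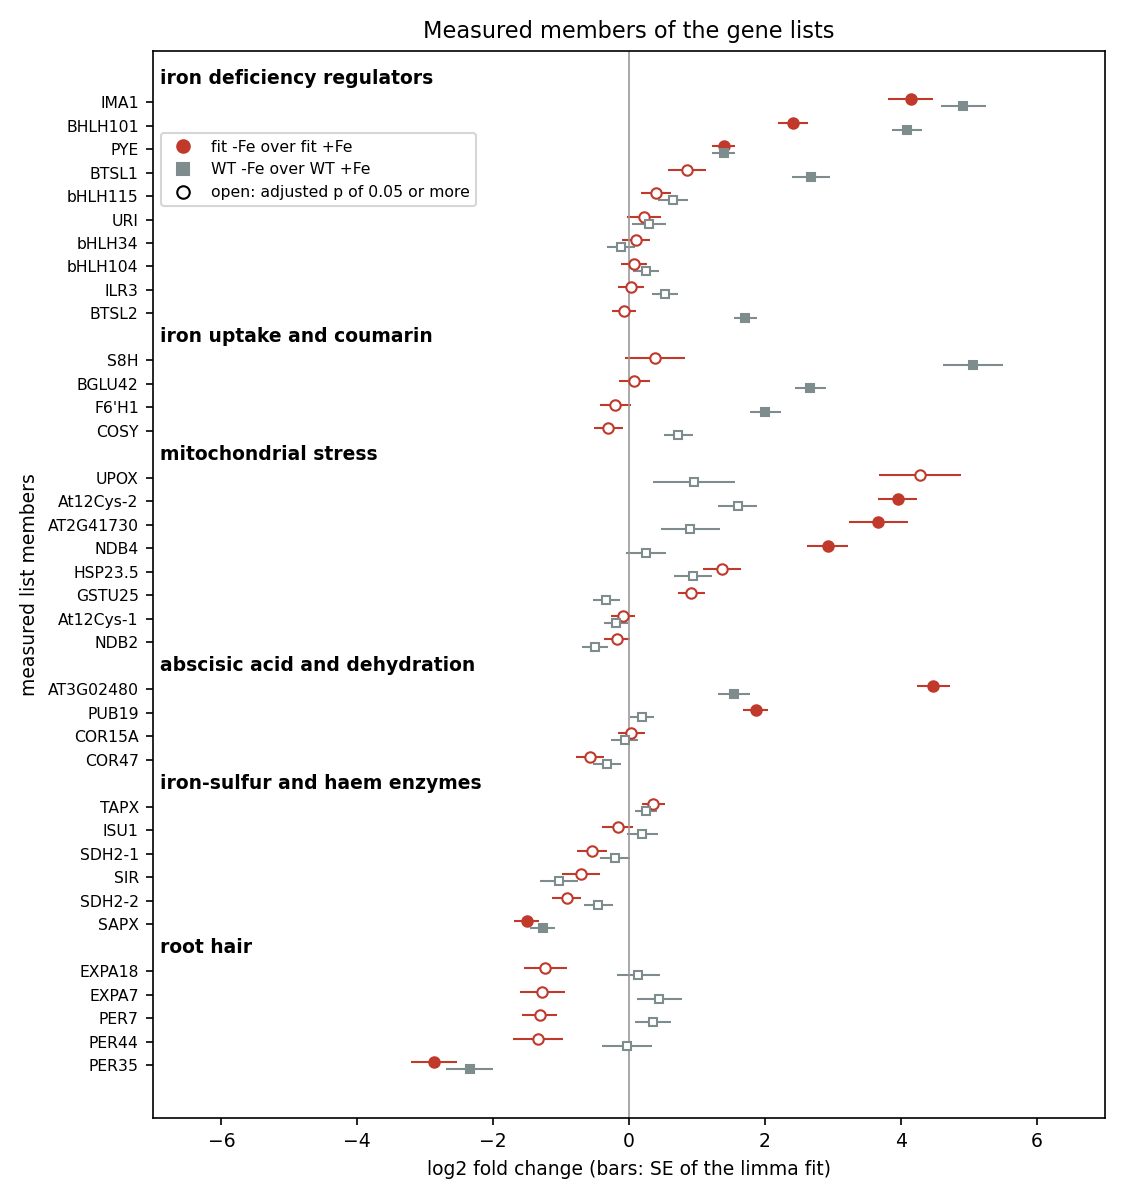
Log2 fold changes, -Fe over +Fe, of the measured members of 6 gene lists. Red circles are fit and grey squares WT, filled where called and open where the adjusted p was 0.05 or more, and bars are standard errors; in fit the regulators IMA1, BHLH101 and PYE and 3 mitochondrial stress genes are filled on the right, while the coumarin genes sit near 0.

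3 genes of a list known to respond to blocked mitochondrial respiration rose in fit roots. Of 20 listed genes 8 were measured, and 3 were called higher and 0 lower, against 0.132% and 0.0703% of all probe sets. The median log2 fold change was 2.14 for the list, against 0.03 over all probe sets. This list was written with earlier results of these data known, so its count and median are not independent support. AT5G09570 (At12Cys-2), a small mitochondrial protein with paired cysteine motifs, had log2 signals of 10.36 and 10.63 in fit -Fe roots, against 6.54 and 6.56 in fit +Fe roots (15.5-fold, log2 3.95, SE 0.28, limma adjusted p = 0.00388). NDB4, an alternative NAD(P)H dehydrogenase that bypasses complex I, had 7.95 and 8.62 in fit -Fe roots, against 5.40 and 5.33 in fit +Fe roots (log2 2.92, SE 0.30, limma adjusted p = 0.0124). AT2G41730, of unknown function, had 8.99 and 10.00 in fit -Fe roots, against 6.28 and 5.37 in fit +Fe roots (log2 3.67, SE 0.43, limma adjusted p = 0.0233); its probe set is of the kind whose probes may bind related transcripts. In each of the 3 both -Fe arrays lay far above both +Fe arrays.

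The list was not uniform. AT2G21640 (UPOX), a mitochondrial protein gene raised by oxidative stress and chosen here after its values were seen, had 8.66 and 10.35 in fit -Fe roots, against 5.16 and 5.27 in fit +Fe roots. Its log2 fold change of 4.29 was among the largest of all, but its -Fe replicates lay far apart and it was not called (SE 0.60, limma adjusted p = 0.0531). AT5G51440 (HSP23.5), a mitochondrial heat shock protein gene, had 6.91 and 6.01 in fit -Fe roots, against 5.18 and 5.02 in fit +Fe roots, and GSTU25, a glutathione transferase gene, had 10.70 and 11.05 against 10.10 and 9.82; neither was called (limma adjusted p = 0.189 and 0.222). AT5G64400 (At12Cys-1), the paralogue of At12Cys-2, stayed bright in both groups at 12.31 and 12.50 in fit -Fe roots, against 12.46 and 12.53 in fit +Fe roots. NDB2, another alternative dehydrogenase, had a log2 fold change of -0.17 (SE 0.19). In WT none of the 8 was called, against 0.431% of all probe sets, and the median log2 fold change of the list was 0.57. At12Cys-2 had 1.60 in WT (limma adjusted p = 0.0901), AT2G41730 0.90 and NDB4 0.24. The test of the difference between genotypes did not pass for At12Cys-2 (2.35, SE 0.40, limma adjusted p = 0.177), NDB4 (2.68, SE 0.42, adjusted p = 0.150) or AT2G41730 (2.77, SE 0.61, adjusted p = 0.420).

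The gene with the largest rise in fit was AT3G02480, of the late embryogenesis abundant family, whose proteins protect cells during drying. Its log2 signals were 11.66 and 11.40 in fit -Fe roots, against 6.75 and 7.35 in fit +Fe roots (22.3-fold, log2 4.48, SE 0.24, limma adjusted p = 0.00191). AT3G02480 was also called higher in WT, by 1.54 (limma adjusted p = 0.0484). PUB19, a ubiquitin ligase that dampens abscisic acid signalling, had 8.93 and 8.74 in fit -Fe roots, against 6.88 and 7.06 in fit +Fe roots (log2 1.86, SE 0.18, limma adjusted p = 0.0101). They were the 2 called members among 4 measured of 16 listed genes of abscisic acid and dehydration, against 0.132% of all probe sets called higher. The other 2 were not called: COR15A was dim at 4.43 and 4.55 in fit -Fe roots, against 4.58 and 4.34 in fit +Fe roots, and COR47 had 12.69 and 12.38 against 13.15 and 13.08 (log2 -0.57, limma adjusted p = 0.508). Nor was any of the 5 late embryogenesis abundant genes found by gene name called, against 0.202% of all probe sets. Their log2 fold changes were -0.35 to 0.17. AT3G02480 and PUB19 were placed on the list with their rise already known.

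Another 5 genes rose in fit roots and were not called in WT. AT5G25840, whose protein has a conserved domain of unknown function, had 8.27 and 8.01 in fit -Fe roots, against 5.15 and 4.77 in fit +Fe roots (9.07-fold, limma adjusted p = 0.00388). AT1G10875, of unknown function, had 7.60 and 8.04 in fit -Fe roots, against 5.08 and 4.57 in fit +Fe roots (log2 3.00). AT1G12030, also of unknown function, had 7.72 and 6.92 in fit -Fe roots, against 4.65 and 4.69 in fit +Fe roots (log2 2.65). AT5G25840, AT1G10875 and AT1G12030 were near the floor of the array in fit +Fe roots, where RMA compresses differences and fold changes are understated. AT5G01670, an aldo-keto reductase family gene, had 8.98 and 8.63 in fit -Fe roots, against 5.84 and 6.49 in fit +Fe roots (log2 2.64). AT4G36700, a cupin family gene, had 6.83 and 6.27 in fit -Fe roots, against 4.98 and 4.60 in fit +Fe roots (log2 1.76, SE 0.24, limma adjusted p = 0.0425).

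3 further genes of unknown role rose in fit and were called in WT too. AT1G73120 had 8.45 and 8.11 in fit -Fe roots, against 5.48 and 5.30 in fit +Fe roots, while WT -Fe roots had 10.83 and 10.65, against 7.04 and 6.89 in WT +Fe roots. So AT1G73120 rose by 2.88 in fit and 3.78 in WT but from a lower base in fit, and both fit -Fe arrays stayed more than 2 log2 units below the WT -Fe arrays. AT5G05250 had 11.18 and 10.64 in fit -Fe roots, against 8.49 and 8.80 in fit +Fe roots (log2 2.26). AT5G02580 had 8.28 and 8.67 in fit -Fe roots, against 6.74 and 6.84 in fit +Fe roots (log2 1.68).

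The other 14 probe sets called higher had no gene name here. The highest were 262091_at, with 8.47 and 8.79 in fit -Fe roots, against 5.14 and 5.49 in fit +Fe roots, and 259632_at, with 10.25 and 10.46 against 7.24 and 7.51. 246998_at had 10.39 and 9.93 in fit -Fe roots, against 7.19 and 7.63 in fit +Fe roots, and 245296_at had 12.32 and 11.66 against 9.18 and 9.38. All 4 were also called higher in WT, with log2 fold changes of 5.65, 1.71, 2.90 and 2.75 there.

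8 named genes were called lower in fit roots. AT3G49960 (PER35), a class III peroxidase gene, had the largest fall of a named gene, with log2 signals of 5.43 and 6.29 in fit -Fe roots, against 8.83 and 8.62 in fit +Fe roots (7.31-fold lower, log2 -2.87, SE 0.34, limma adjusted p = 0.0242). AT5G04970, of the pectin methylesterase inhibitor family, had 6.26 and 6.50 in fit -Fe roots, against 7.72 and 7.96 in fit +Fe roots (log2 -1.45, limma adjusted p = 0.0448). AT4G25790, a secreted cysteine-rich protein gene of the CAP family, had 7.29 and 7.14 in fit -Fe roots, against 8.82 and 8.96 in fit +Fe roots (log2 -1.68, limma adjusted p = 0.0359). In each of these genes both -Fe arrays lay more than 1 log2 unit below both +Fe arrays.

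All 5 measured root hair genes of 17 listed were below fit +Fe on both fit -Fe arrays, against 16.4% of all probe sets, but AT3G49960 was the only one called. As with the other lists, earlier results of these data were known when this list was written. EXPA7, an expansin of growing root hairs, had 7.76 and 7.62 in fit -Fe roots, against 9.05 and 8.87 in fit +Fe roots. EXPA18, another root hair expansin, had 7.70 and 7.33 in fit -Fe roots, against 8.84 and 8.66 in fit +Fe roots. The peroxidase gene AT1G30870 (PER7) had 9.20 and 9.02 in fit -Fe roots, against 10.40 and 10.45 in fit +Fe roots, and AT4G26010 (PER44) had 10.70 and 10.01 against 11.87 and 11.51. These 4 had log2 fold changes of -1.34 to -1.23 in fit (limma adjusted p between 0.175 and 0.341) and of -0.03 to 0.45 in WT. For these 4 the difference between genotypes did not pass (lowest limma adjusted p = 0.426, for PER7). AT3G49960 was called lower in WT as well, with a log2 fold change of -2.35 (limma adjusted p = 0.0381), against -2.87 in fit. Array signal from whole roots cannot tell fewer root hair cells from less RNA per cell. Of 19 measured expansin genes 10 were lower on both fit -Fe arrays and 2 higher, against 16.4% and 19.4% of all probe sets. Limma called 0 of the 19, against 0.202% of all probe sets, and the median log2 fold change was -0.26. EXPB3 came nearest, with 9.07 and 8.85 in fit -Fe roots, against 10.24 and 10.19 in fit +Fe roots (log2 -1.25, SE 0.21, limma adjusted p = 0.0970).

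On the list of iron-sulfur and haem enzymes, SAPX was called lower. SAPX, a haem peroxidase of plastids that removes hydrogen peroxide, had 8.41 and 8.30 in fit -Fe roots, against 9.80 and 9.93 in fit +Fe roots (log2 -1.51, SE 0.18, limma adjusted p = 0.0268). It was the 1 member called among 6 measured of 17 listed iron-sulfur and haem genes, whose median log2 fold change was -0.62, against 0.03 over all probe sets. Of the 6, 4 were below fit +Fe on both -Fe arrays, a pattern that 16.4% of all probe sets had, and 0.0703% of all probe sets were called lower. SDH2-2 and SDH2-1, iron-sulfur subunits of succinate dehydrogenase, had log2 fold changes of -0.92 (SE 0.22) and -0.54 (SE 0.22) and were not called (limma adjusted p = 0.268 and 0.557). SIR, sulfite reductase with a haem and an iron-sulfur cluster, had 10.15 and 9.28 in fit -Fe roots, against 10.45 and 10.39 in fit +Fe roots, so most of its difference lay on the array of high 3' to 5' ratio. TAPX, the thylakoid counterpart of SAPX, had 7.25 and 7.28 in fit -Fe roots, against 6.86 and 6.96 in fit +Fe roots, a difference in the other direction that was not called (log2 0.36, SE 0.16).

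The remaining named genes called lower were AT1G68650, AT2G36885, AT5G40510 and AT1G24575. AT1G68650, of a family of predicted manganese and calcium transporters, had 6.28 and 6.49 in fit -Fe roots, against 8.45 and 8.50 in fit +Fe roots (4.26-fold lower, log2 -2.09, SE 0.17, limma adjusted p = 0.00609). AT2G36885 had 5.60 and 5.99 in fit -Fe roots, against 7.75 and 7.82 in fit +Fe roots (log2 -1.99). AT5G40510, of the sucrase and ferredoxin-like family, had 7.70 and 7.65 in fit -Fe roots, against 9.61 and 9.31 in fit +Fe roots (log2 -1.79). AT1G24575 had 5.04 and 4.94 in fit -Fe roots, against 6.59 and 6.70 in fit +Fe roots (log2 -1.65). Among the 8 probe sets called lower without a single gene name, 261448_at had the largest fall of all, with 6.01 and 5.70 in fit -Fe roots, against 9.33 and 9.10 in fit +Fe roots. 251109_at had 8.25 and 8.73 in fit -Fe roots, against 11.16 and 11.18 in fit +Fe roots, 247871_at 6.47 and 6.65 against 9.28 and 9.12, and 246991_at 9.13 and 9.29 against 11.38 and 11.32.

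Calls say little about the further families, since few probe sets were called at all. Family members were found by gene name only, so the families are incomplete. Of those found, limma called 0 of 24 cytochrome P450, 12 glutathione transferase, 7 WRKY and 4 pectin methylesterase genes in fit. The share over all probe sets was 0.202%, and the medians were 0.04, -0.09, 0.22 and 0.15. Among the genes found by name, the widest log2 fold changes were 0.87 for CYP71B34 (SE 0.30) and -1.06 for GSTU28 (SE 0.31). For the other families they were 0.82 for WRKY22 (SE 0.21) and -0.50 for PMEPCRF (SE 0.27). The names missed the pectin methylesterase inhibitor family genes AT5G04970, called lower at -1.45, and AT5G04960, not called at -1.62. CCS, the copper chaperone of superoxide dismutase, had -0.08 (SE 0.27), and the reference genes AT2G28390 (SAND) and AT4G34270 (TIP41) had 0.06 and -0.14. The shoot markers RCA, LHCB4.1 and PORB, summed on the linear scale, had 471 and 448 in fit -Fe roots, against 507 and 674 in fit +Fe roots. Of these 3 markers 0 were called, against 0.202% of all probe sets.

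The 69 measured plastid genome genes were uneven between the fit -Fe replicates. Against the fit +Fe mean, their log2 changes ran from -0.94 to 0.38 on replicate 1 and from -2.33 to 3.12 on replicate 2, the array with the 3' to 5' ratio of 5.91. Limma called 0 of the 69, against 0.202% of all probe sets. rpoB, for a subunit of the plastid RNA polymerase, had 5.01 and 7.82 in fit -Fe roots, against 4.64 and 4.77 in fit +Fe roots. The part of RNA quality in this was not tested. Without fit -Fe replicate 2, 31 probe sets were called, 23 higher and 8 lower, and 25 of the 46 remained called, among them 15 of the 24 named genes. IMA1 (3.74), BHLH101 (2.45), AT3G02480 (4.61), At12Cys-2 (3.82) and NDB4 (2.58) remained, while PYE (1.44, limma adjusted p = 0.0709), SAPX (-1.46, 0.0893), AT2G41730 (3.16, 0.0771), AT1G10875 (2.78, 0.0551), AT5G02580 (1.49, 0.0604), AT5G04970 (-1.57, 0.0817), AT1G24575 (-1.60, 0.0817), AT4G25790 (-1.60, 0.119) and AT5G40510 (-1.76, 0.138) kept their direction and lost the call.

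**Figure D3:**
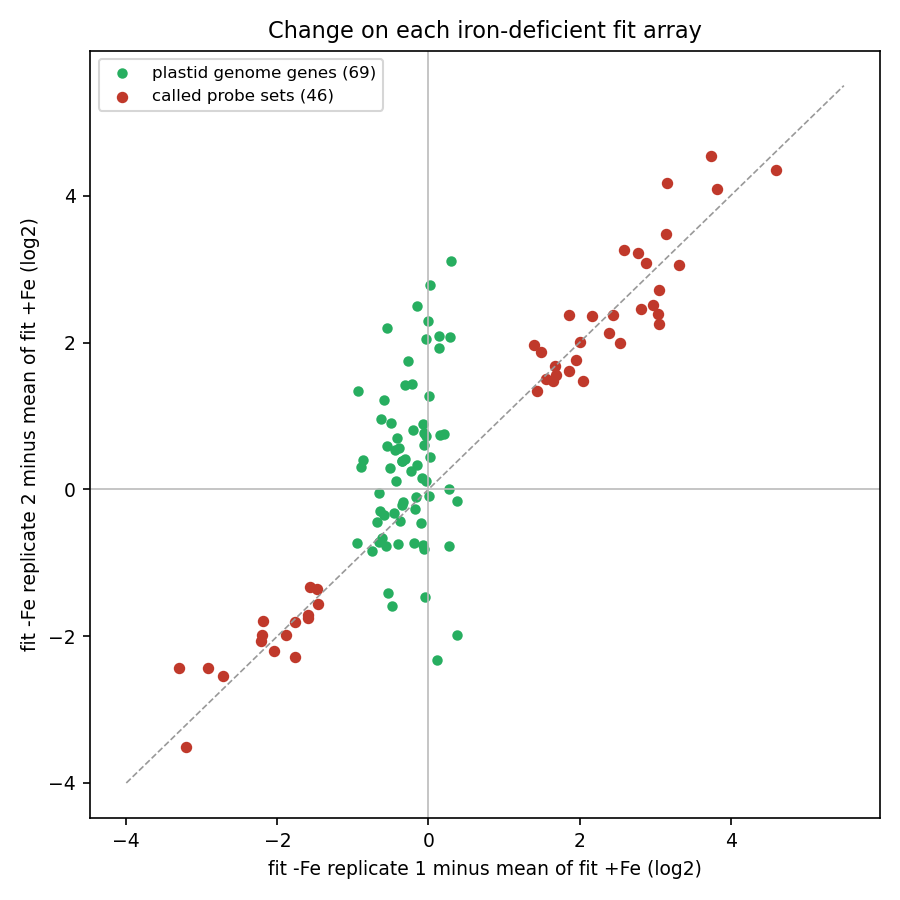
Change of each fit -Fe array from the mean of the 2 fit +Fe arrays, replicate 1 on the horizontal and replicate 2 on the vertical axis, in log2 units. The 46 called probe sets (red) lie near the dashed line of equal change, as the test requires of a called probe set, and the 69 plastid genome genes (green), which were not chosen by a test, lie between -0.94 and 0.38 on replicate 1 and from -2.33 to 3.12 on replicate 2.

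The fit response was then set beside that of WT. Both comparisons use different arrays but share a common estimate of the spread for each probe set, so their calls are not independent. In WT 98 probe sets, or 0.431%, were called, 81 higher (0.356%) and 17 lower (0.0747%). Of the 30 probe sets called higher in fit, 17 (56.7%) were called higher in WT, which is 21.0% of the 81 called higher there. Of the 16 called lower in fit, 5 (31.2%) were called lower in WT, or 29.4% of the 17 called lower there. Across all probe sets the log2 fold changes of fit and WT correlated at r = 0.412, which was 0.335 from the replicate 1 -Fe arrays and 0.606 from the replicate 2 -Fe arrays, the pair of high 3' to 5' ratio. PYE rose by 1.39 in both genotypes (SE of the difference 0.24). AT2G36885 fell by 1.99 in fit and by 1.97 in WT (SE of the difference 0.29). SAPX and AT1G68650 were called lower in WT too, with log2 fold changes of -1.27 and -1.73 there.

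The other 24 probe sets were called in fit and not in WT. The 13 higher ones among them had a median log2 fold change of 2.64 in fit and 0.26 in WT, and the 11 lower ones of -1.94 in fit and -0.49 in WT; since they were picked by their calls in fit, smaller values in WT follow in part from the choice. AT5G25840 had 4.77 and 4.94 in WT -Fe roots, against 4.36 and 4.76 in WT +Fe roots, and NDB4 had 5.46 and 6.10 against 5.69 and 5.38, so both were dim on all 4 WT arrays. The test of the difference itself passed for 17 of all probe sets (0.0747%), 2 with the fit response above (0.00879%) and 15 with it below (0.0659%) that of WT. Among the 46, it passed for 3: AT3G02480 rose by 2.93 more in fit (SE 0.34, limma adjusted p = 0.0393), AT5G25840 by 2.89 more (SE 0.32, adjusted p = 0.0358), and 264751_at had a rise 2.32 smaller in fit (log2 difference -2.32, SE 0.25, adjusted p = 0.0358). For the other 43 a difference between genotypes was not shown.

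**Figure D4:**
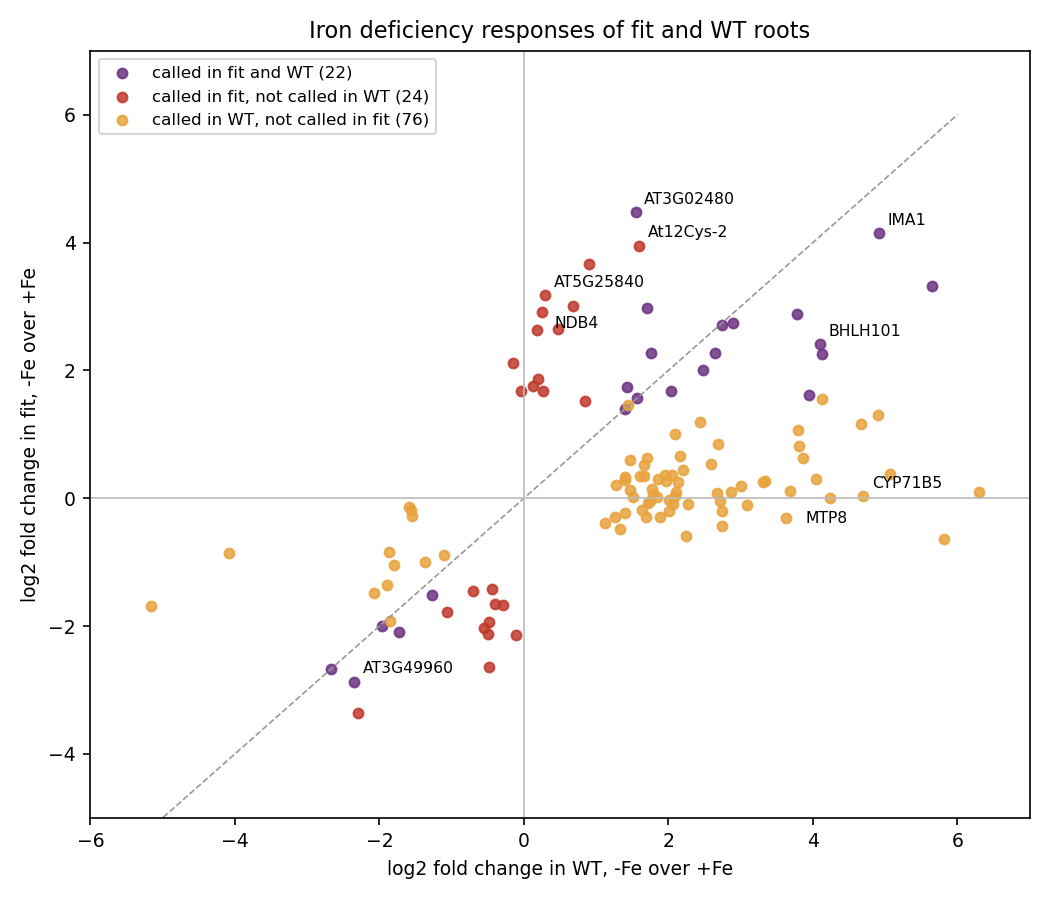
Log2 fold changes, -Fe over +Fe, of the 122 probe sets called in either genotype, with fit on the vertical and WT on the horizontal axis. Purple points were called in both genotypes (22), red in fit and not WT (24) and orange in WT and not fit (76), and the dashed line marks equal change; many orange points, MTP8 and CYP71B5 among them, lie near 0 in fit.

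Some genes that rose in fit started from a raised level. BHLH101 had 9.04 and 9.24 in fit +Fe roots, against 6.08 and 6.22 in WT +Fe roots (log2 2.99, limma adjusted p = 0.0115), and 264751_at had 9.37 and 9.34, against 6.62 and 6.84 (log2 2.63, limma adjusted p = 0.0115). These were the only 2 probe sets called between the genotypes with sufficient iron (0.00879%). From these starts BHLH101 reached 11.59 and 11.51 in fit -Fe roots, against 9.97 and 10.52 in WT -Fe roots, a difference of 1.31 that was not called (limma adjusted p = 0.0891). IMA1 was 2.08 higher in fit +Fe than in WT +Fe roots and 1.30 higher in fit -Fe than in WT -Fe roots, neither of them called (limma adjusted p = 0.381 and 0.370). AT3G02480 was 2.41 higher in fit +Fe than in WT +Fe roots, which narrowly missed the call (limma adjusted p = 0.0508). At12Cys-2 and NDB4 differed by 0.19 and -0.17 between fit +Fe and WT +Fe roots, and by 2.54 and 2.50 between fit -Fe and WT -Fe roots, where both were called (limma adjusted p = 0.0153 and 0.0197) among 62 probe sets (0.273%). PUB19 and AT5G01670 were likewise called higher in fit -Fe than in WT -Fe roots, by 2.53 and 3.02 (limma adjusted p = 0.0016 and 0.00258).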

How the data were processed

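RNA from roots was hybridised to Affymetrix arrays. The authors deposited 1 intensity a probe set, on a linear scale, made with RMA per the submitters' processing notes; its version is not given in the sources used here. These deposited intensities were turned into log2 values. The log2 values of all 8 arrays went into 1 limma model with a mean for each group (version 3.58.1, R 4.3.3, lmFit and eBayes). It had 4 residual and 3.82 prior degrees of freedom. Benjamini-Hochberg adjustment ran across 22746 probe sets, and 64 controls were left out. Intervals are 95% intervals of this fit. The number of arrays, 2 per group, limits the precision, and the labels call the replicates biological without naming separate cultures, so p-values measure the spread between these samples.

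Probe sets were named through the platform table and RefSeq genes (TAIR10.1, names only): 13513 named 1 gene, 503 several and 8730 none here. Common names in brackets, and roles, are background knowledge. Of 213 loci on 19 lists 46 were measured, meaning here that a probe set named them alone, each by its brightest such probe set. On 9 lists no member was measured in this sense: iron translocation, iron storage, low oxygen, phosphate, sulfur, methionine cycle, endodermis, stele and meristem. Probe sets of unmeasured members may be among the 8730 without a name, which were tested. Families were matched on RefSeq symbols and synonyms, in place of the descriptions planned, plastid genes by chromosome; 8 of 16 families had under 3 members and are not described. The rule for names takes every called 1-gene probe set, the 4 highest and 4 lowest called without a single name, all measured regulators and uptake genes, the called or up to 4 most changed members of other lists, and 6 genes called higher in WT and not in fit. The lists and this report's members were chosen with earlier results of these data known. On simulated data with the fitted spread (22746 probe sets, 200 changed), the same model recovered 18.8% of log2 changes of 1, 71.0% of changes of 2 and 97.6% of changes of 4. Simulated arrays were independent and had the same spread in all groups. The real arrays had a median SD of 0.26 in fit -Fe and 0.125 in fit +Fe, so these shares may not hold for them. Alternatives tried were other normalisations, filters, variance models and weights, a replicate block, a covariate for the 3' to 5' ratio, and leaving out arrays. The search of promoters for motifs that was planned was not run.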

Additional observations from a re-analysis of the deposited data

Results flagged for a closer look

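The test of the difference between the fit and the WT response passed for 17 probe sets (limma, adjusted over all probe sets), and the 8 of them that were called in fit or are named by the rule are given here. The fit response was above that of WT for AT3G02480 (log2 difference 2.93, with 4.48 in fit and 1.54 in WT) and AT5G25840 (2.89, with 3.18 in fit and 0.29 in WT). The fit response was below that of WT for AT3G61930 (-6.45), CYP71B5 (-4.67), AT3G58060 (MTP8, -4.23), FOLB1 (-3.74) and the pectin methylesterase gene ATPMEPCRB (-2.81, with 0.19 in fit and 3.00 in WT). It was also below for 264751_at (-2.32), which rose in both genotypes, by 1.62 in fit and 3.94 in WT. With 2 arrays a group, no single sample could be tested as standing apart.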

How the results depend on the processing

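The count of 46 called probe sets, 30 higher and 16 lower, depends on the model. It was 6 (5 and 1) with only the 4 fit arrays, 24 (16 and 8) with only probe sets naming 1 gene, and 153 (72 and 81) in the fit that added a covariate for the 3' to 5' ratio. With a replicate block it was 145 (55 and 90); same-numbered arrays deviated together in all 6 pairs of groups, with r from 0.131 (fit -Fe with fit +Fe) to 0.659 (fit -Fe with WT -Fe), while the labels tie the 2 numbers to no shared batch. All 46 calls remained under the block. The lower calls were 9 with array weights and 25 without the 2 arrays of high 3' to 5' ratio. Leaving out 1 array in turn gave 1 to 69 calls, 1 to 40 higher and 0 to 29 lower. The single call left without either fit +Fe array was AT3G02480, which was called under all 18 alternatives. All 46 kept their sign under each alternative that tested them. Without fit -Fe replicate 2 it was 31, and without either WT +Fe array 28.

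Regulators called, 3, became 0 with only the fit arrays and 0 to 2 without 1 array; the 4 coumarin genes stayed at 0 throughout. Mitochondrial stress genes called, 3, became 1 with only the fit arrays, 5 with the covariate, 5 without the high-ratio arrays and 0 to 4 without 1 array. WT calls, 98, became 201 with the replicate block, 408 with the covariate, 44 with only 1-gene probe sets and 26 to 140 without 1 array. Probe sets called higher in both genotypes, 17, became 26, 40 and 6 under those alternatives and 0 to 14 without 1 array. Those called lower in both, 5, became 15 with the block, 25 with the covariate, 9 without the high-ratio arrays and 0 to 6 without 1 array. Differences between the responses, 17, became 40 with the block, 88 with the covariate, 10 with only 1-gene probe sets and 3 to 26 without 1 array; the 3 among the 46 became 6, 14, 1 with array weights and 0 to 4 without 1 array. The 2 calls between fit and WT with sufficient iron became 4 with quantile normalisation, median centring, no dim probe sets, trended variance or the block, 20 with the covariate, 18 with array weights, 6 without the high-ratio arrays, 1 with only 1-gene probe sets and 0 to 6 without 1 array. What caused these shifts was not tested for any of the alternatives.

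Among the values of named probe sets under alternatives, 685 kept direction and call, 151 lost the call, 2 gained it (AT4G19370 at 1.40 and AT1G74770 at 1.25, both with the covariate) and 18 uncalled values changed sign. Dim genes limit the rest: 25% of probe sets had a mean log2 signal under 4.96, where fold changes are understated.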

Other observations

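A set of 8 probe sets missed the call in fit but passed under each of the replicate block fit, the 3' to 5' covariate fit and the fit without the high-ratio arrays. They included XTH26, a cell wall xyloglucan endotransglucosylase, with log2 signals of 4.46 and 4.94 in fit -Fe roots, against 6.25 and 6.05 in fit +Fe roots (log2 -1.45, limma adjusted p = 0.0962). AT2G43890, a polygalacturonase family gene of pectin breakdown, had 4.59 and 5.23 in fit -Fe roots, against 6.90 and 6.56 in fit +Fe roots (log2 -1.82, limma adjusted p = 0.0689). AT2G41810 had 7.68 and 8.18 in fit -Fe roots, against 9.88 and 10.20 in fit +Fe roots (log2 -2.11, limma adjusted p = 0.165). UPOX, described above, was the other named gene of the set. These genes were chosen after their values were seen.

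Further uncalled genes with large differences on both fit -Fe arrays were also picked by size. AT5G04960, a pectin methylesterase inhibitor family gene, averaged 8.03 ± 0.04 in fit -Fe roots and 9.64 ± 0.10 in fit +Fe roots (SD, n = 2 each; log2 -1.62, limma adjusted p = 0.114), and 0.49 in WT. AT1G52070 had 7.33 and 7.76 in fit -Fe roots, against 9.72 and 9.01 in fit +Fe roots (log2 -1.82, limma adjusted p = 0.140), and 0.85 in WT. AT4G14020 had 8.26 and 8.47 in fit -Fe roots, against 6.64 and 6.50 in fit +Fe roots (log2 1.79, limma adjusted p = 0.0552), and 1.64 in WT. Whether fit and WT differ at these genes was not shown, and no explanation is offered.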
